A study of Mus musculus with 4 samples.

Results

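The transcripts described here are those of 8 genes of mRNA decapping and 5′-to-3′ decay, *Dcp1a*, *Dcp1b*, *Dcp2*, *Edc3*, *Edc4*, *Xrn1*, *Xrn2* and *Patl2*. They were listed by name and matched by Ensembl identifier, and all 8 were found among the 21957 genes of the expression table. Mouse oocytes of hybrid B6D2F1 (C57BL/6 x DBA) females aged 6 to 8 weeks, primed with gonadotropin and freed of cumulus cells, were sequenced in 4 conditions with 1 library each. The GV library is from untreated germinal vesicle oocytes at 0 h of culture. MII oocytes were untreated, cultured for 12 h and taken only if they had a polar body. TubA-10 and TubA-20 oocytes were cultured for 12 h with 10 or 20 μM tubastatin A (TubA), a compound made to inhibit the deacetylase HDAC6. For the TubA oocytes no selection on the polar body is described, so drug and meiotic stage cannot be told apart. The doses are those of the sample titles, whereas the labels also hold a treatment entry of 20 μM for the former and of 11 μM for the latter. Each library was made from a pool of 100 oocytes, and no spread between replicates exists, so no difference below has a p-value.

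An mRNA carries a methylated cap at its 5′ end, which protects it and recruits the translation machinery. Most mRNAs are first shortened at the poly(A) tail, then the enzyme DCP2 removes the cap with its activator DCP1, and the exonuclease XRN1 digests the body from the 5′ end. EDC3 and EDC4 are scaffolds and enhancers of decapping, PATL proteins join decapping factors to the Lsm1-7 ring, and XRN2 is the nuclear relative of XRN1. A growing mouse oocyte stores stable, dormant mRNAs, transcription stops before maturation, and many stored mRNAs are degraded between GV and MII. DCP1A and DCP2 are known as proteins made from dormant mRNAs during that time, and PATL2 as an oocyte protein of the mRNA storage particle.

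The data are FPKM, fragment numbers scaled to the length of the transcript and to the size of the library, so levels of different genes within a library can be set side by side. Changes are log2 ratios of FPKM + 1, where 1 is 2-fold, and a percentile places a change among all genes that reached 1 FPKM in either library of the pair. Relative to GV, the step between the lowest values put the depth at 1.62 at MII, 1.67 with TubA-10 and 0.896 with TubA-20, and read totals were not used. This order of GV and TubA-20 is uncertain, since the read totals named in the study place GV lowest. All 9 oocyte markers tested, among them *Zp3* and *Gdf9*, lay between 197 and 6213 FPKM in every library. The 9 cumulus and granulosa markers summed to 8.44 FPKM in GV, 10.9 at MII, 8.43 with TubA-10 and 13.9 with TubA-20. Most of that was *Cyp19a1* (6.14 to 10.3 FPKM), with *Foxl2* at 0 in every library, and the 3 blood markers were at or below 0.00893 FPKM. The part of these markers in the results was not tested. Against GV, the median gene with at least 1 FPKM in every library was higher by 0.14 at MII, 0.16 with TubA-10 and 0.23 with TubA-20 on the log2 scale, without a pseudocount. Relative to that gene, changes against GV are lower by about these amounts.

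The libraries were selected with oligo(dT), so that only RNA with a poly(A) tail was read, and more molecules and longer tails cannot be told apart. FPKM are shares of a library, so more of an mRNA in each oocyte and less of the other mRNAs, or fewer oocytes and less RNA in each, cannot be told apart either. The ends of the 3′ UTRs are therefore shown first. In 1 principal transcript for each gene (GENCODE M21, GRCm38), the last 150 bases were searched on the transcript strand for the poly(A) signals AAUAAA and AUUAAA and for the cytoplasmic polyadenylation elements (CPEs) UUUUAU and UUUUAAU. CPEs are sites of the protein CPEB, through which tails of dormant mRNAs are lengthened during maturation. A poly(A) signal was found in 7 of the 8 genes, all but *Edc3*, against 82.8% of 9677 genes with at least 1 FPKM in a library. A CPE was found in 2 of the 8, *Dcp1a* with 3 and *Xrn1* with 1, against 26.1% of these genes. The stretches around the CPEs are given with the element in capitals, in RNA letters from 5′ to 3′.
Dcp1a, 140 bases from the end, plus strand, chr14:30526914-30526939: gugguguggaUUUUAUaccaucugug
Dcp1a, 67 bases from the end, plus strand, chr14:30526985-30527012: uuucauccuaaaUUUUAUauguuugcaa
Dcp1a, 43 bases from the end, plus strand, chr14:30527009-30527037: gcaaauauauuuUUUUAAUaaaauuucaa
Xrn1, 112 bases from the end, plus strand, chr9:96052904-96052931: agauuaaauauuUUUUAUuuuuaaguua

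The third element of *Dcp1a* overlaps its poly(A) signal, which begins 39 bases from the end. For comparison, the last poly(A) signals of *Xrn2* and of *Patl2*, neither of which has a CPE in this window, are shown with the signal in capitals.
Xrn2, 21 bases from the end, plus strand, chr2:147077968-147077995: uaaaaaaauaaaAAUAAAgcuaaacuuu
Patl2, 25 bases from the end, minus strand, chr2:122120117-122120144: ggccuuguauuuAAUAAAagucuaaucu

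A match is a string of letters and not a tested site, and the ends used in these oocytes may differ from the annotated ones. The annotated genes *Xrn1* and *Edc4* reach to 96057803 and 105894908, past the ends of the searched transcripts at 96053027 and 105893208. What lies beyond those ends was not searched. *Dcp2*, whose annotated 3′ UTR of 7240 bases is the longest in the 8 transcripts used, had a poly(A) signal 25 bases from the end. Neither CPE was in the window, which says nothing of the other bases of that UTR.

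**Figure D1:**
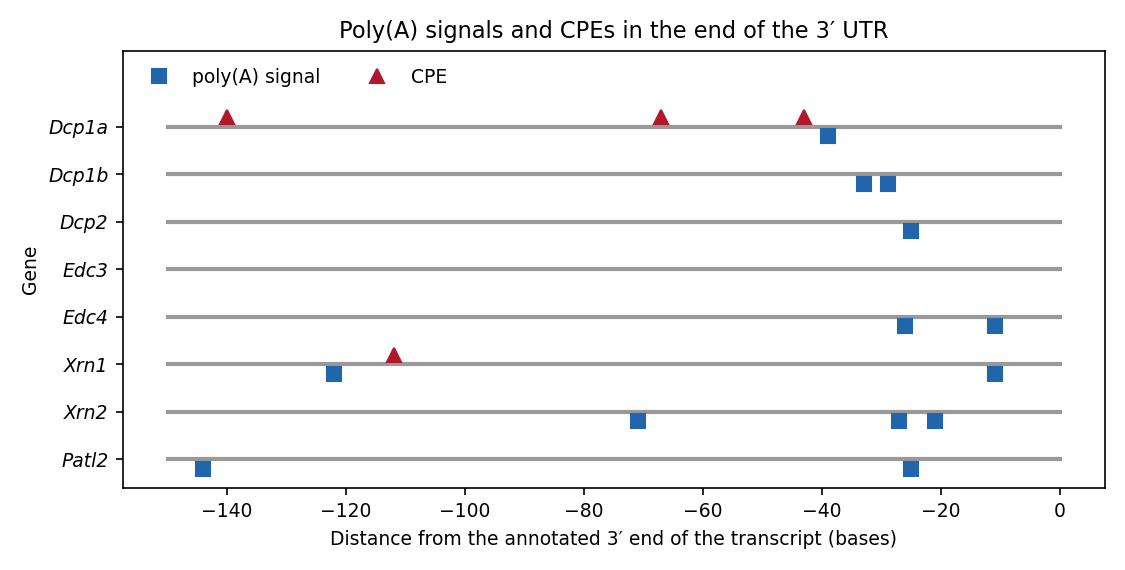
Poly(A) signals (squares) and CPEs (triangles) in the last 150 bases of the annotated 3′ UTR of 1 transcript for each gene, by distance from its annotated end in bases. *Dcp1a* holds 3 CPEs and *Xrn1* holds 1, and the other 6 genes hold none in this window.

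*Dcp2* (chromosome 18, 44380502 to 44424969, plus strand) encodes the enzyme that cuts the cap. It was the most abundant of the 8 in every library, with 80.3 FPKM in GV, 180 at MII, 181 with TubA-10 and 280 with TubA-20. GV was lowest, MII and TubA-10 were nearly level, and TubA-20 stood above the other three. Relative to GV, the log2 change was 1.15 at MII, 1.16 with TubA-10 and 1.79 with TubA-20, at the percentiles 97.3, 99.5 and 99.6. Relative to MII it stood at 0.01 in TubA-10, which turned negative under 3 of 4 rescalings of the libraries, and 0.63 in TubA-20, at percentile 95. Among genes with at least 1 FPKM in a library, the level of *Dcp2* went from percentile 85.6 in GV to 95.7 in TubA-20.

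*Dcp1a* (chromosome 14, 30479535 to 30527063, plus strand) encodes the main activator of DCP2. It was at 53.7 FPKM in GV, 84.5 at MII, 78.2 with TubA-10 and 102 with TubA-20. GV was lowest and TubA-20 highest, as for *Dcp2*, with TubA-10 slightly below MII, and no pair of libraries differed by 2-fold on the scale of FPKM + 1. Relative to GV, the change was 0.64 at MII, 0.53 with TubA-10 and 0.92 with TubA-20, and relative to MII it stood at −0.11 with TubA-10 and 0.28 with TubA-20. With equal upper quartiles the difference between GV and TubA-20 passed 2-fold, at 1.07. The ratio of *Dcp2* to *Dcp1a* within a library, which no scaling of the library can move, was 1.5 in GV, 2.13 at MII, 2.32 with TubA-10 and 2.73 with TubA-20.

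*Dcp1b* (chromosome 6, 119175253 to 119221616, plus strand), the paralogue of *Dcp1a*, was below 1 FPKM throughout. Its values were 0.352 FPKM in GV, 0.311 at MII, 0.359 with TubA-10 and 0.728 with TubA-20. *Dcp1a* exceeded it by between 141 times in TubA-20 and 272 times in MII. At such levels FPKM + 1 hides most of a change, and the log2 change from MII to TubA-20 was 0.40 with a pseudocount of 1 and 1.20 with one of 0.01. *Dcp1b* did not reach the 1 FPKM that was asked of the genes it is compared with, so 7 of the 8 genes passed that minimum.

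**Figure D2:**
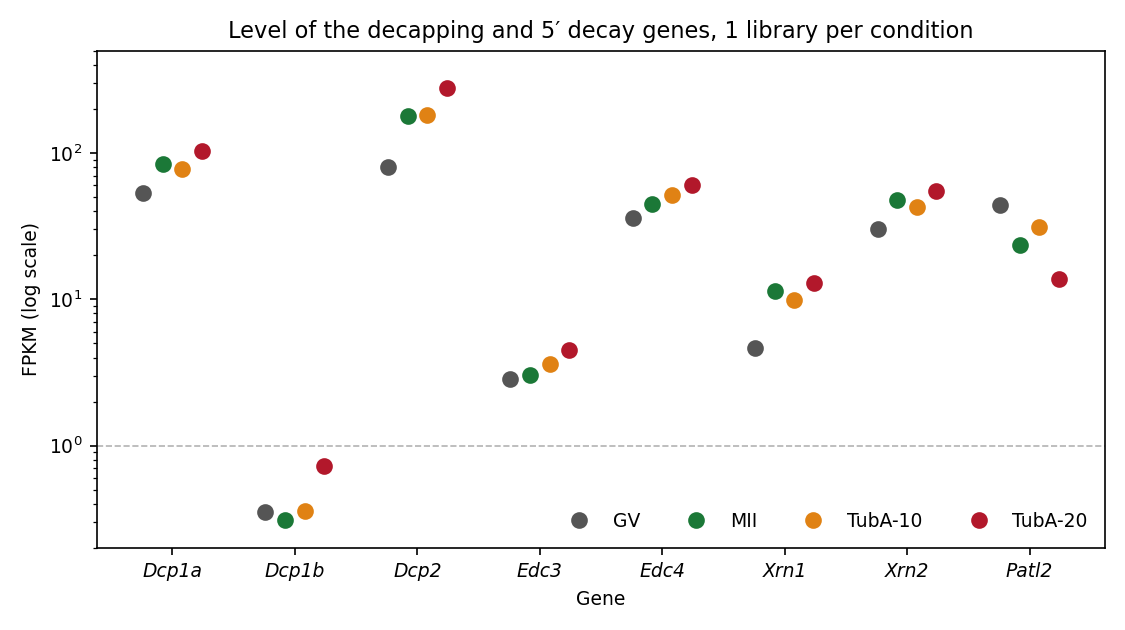
FPKM of the 8 genes on a log axis, with 1 point for each library (GV, MII, TubA-10 and TubA-20) and a dashed line at 1 FPKM. *Dcp2* is the highest gene in every library and *Dcp1b* stays below the line, and TubA-20 is the highest point of every gene but *Patl2*.

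Of the scaffolds, *Edc4* (chromosome 8, 105880881 to 105894908, plus strand) was at 36.1 FPKM in GV, 45.1 at MII, 52.0 with TubA-10 and 60.8 with TubA-20. *Edc3* (chromosome 9, 57708540 to 57752499, plus strand) was at 2.85, 3.04, 3.63 and 4.52 FPKM in the same order. For both genes GV was lowest and TubA-20 highest, and no step reached 2-fold. The changes from GV to TubA-20 were 0.74 for *Edc4* and 0.52 for *Edc3*, and from MII to TubA-20 they were 0.42 and 0.45, at percentiles 86 and 87.5. From GV to MII the change of *Edc3* was 0.07 and turned to −0.04 with the median change set to 0, while that of *Edc4* was 0.31. *Edc4* exceeded *Edc3* by 12.6 times in GV, 14.8 at MII, 14.3 with TubA-10 and 13.5 with TubA-20. The annotated exons of *Edc4* share 458 bases with *Nrn1l* on the same strand, which was at 127 FPKM in GV, 203 at MII, 200 with TubA-10 and 385 with TubA-20. The values of *Edc4* are uncertain for that reason. The exons of *Edc3* share 1284 bases with *Clk3* on the opposite strand, which was at 38.6 FPKM in GV, 41.7 at MII, 57.5 with TubA-10 and 52.6 with TubA-20. Strand-specific counting is described for these libraries, but whether it separated the 2 genes was not tested. The values of *Edc3* are therefore uncertain too.

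*Xrn1* (chromosome 9, 95954760 to 96057803, plus strand) encodes the cytoplasmic exonuclease that degrades decapped mRNA. It was at 4.63 FPKM in GV, 11.4 at MII, 9.88 with TubA-10 and 12.9 with TubA-20. GV stood apart from the 3 cultured libraries, which lay close together. Relative to GV, the log2 change was 1.14 at MII, 0.95 with TubA-10 and 1.3 with TubA-20, at percentiles 97, 97.9 and 94.5. For TubA-10 it lay past 2-fold when the pseudocount was 0.1 (1.08) or 0.01 (1.09), when sums were made equal (1.02) and when *Gapdh* was (1.19). Relative to MII the change was −0.19 with TubA-10 and 0.16 with TubA-20, and the latter was 0.02 with equal *Gapdh*. Exons of *Xrn1* also overlap those of the antisense genes *C78334* (604 bases) and *Gm16794* (184 bases) on the other strand.

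The nuclear exonuclease gene *Xrn2* (chromosome 2, 147012996 to 147078000, plus strand), which acts in transcription termination and RNA processing, was at 30.4 FPKM in GV, 47.5 at MII, 42.8 with TubA-10 and 55.1 with TubA-20. Its order of libraries was that of *Xrn1* with smaller differences from GV, 0.63 at MII, 0.48 with TubA-10 and 0.84 with TubA-20. From MII to TubA-20 it differed by 0.21, which was 0.05 with equal *Gapdh*. *Xrn2* exceeded *Xrn1* by 6.57 times in GV and by 4.17 times at MII, 4.33 with TubA-10 and 4.27 with TubA-20, so the ratio in GV was apart from the other libraries and those 3 were alike.

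*Patl2* (chromosome 2, 122120108 to 122186189, minus strand) went the other way. It was at 44.3 FPKM in GV, 23.6 at MII, 31.0 with TubA-10 and 13.7 with TubA-20. GV was highest, TubA-10 lay between GV and MII, and TubA-20 was lowest. Relative to GV, the change was −0.88 at MII, −0.50 with TubA-10 and −1.62 with TubA-20, at percentiles 20.1, 24.4 and 13.5. With the median change set to 0 the difference between GV and MII passed 2-fold, at −1.02. Relative to MII it stood at 0.38 with TubA-10 and −0.74 with TubA-20, and between the doses it was −1.12, which became −0.997, short of 2-fold, with equal upper quartiles. Its paralogue *Patl1*, which is expressed in many tissues, was at 3.50 FPKM in GV, 7.76 at MII, 5.82 with TubA-10 and 7.17 with TubA-20. The ratio of *Patl2* to *Patl1* was 12.7 in GV, 3.05 at MII, 5.33 with TubA-10 and 1.92 with TubA-20.

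**Figure D3:**
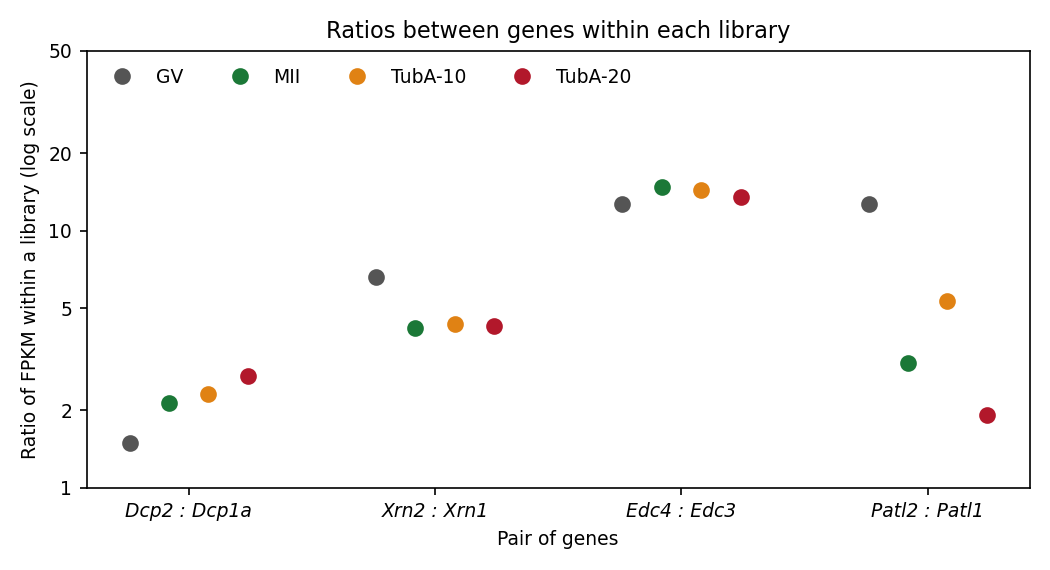
Ratios of FPKM between 2 genes of the same library, on a log axis, for *Dcp2* to *Dcp1a*, *Xrn2* to *Xrn1*, *Edc4* to *Edc3* and *Patl2* to *Patl1*, with 1 point for each library. *Patl2* to *Patl1* spans the widest range, from 12.7 in GV to 1.92 in TubA-20, and *Edc4* to *Edc3* the narrowest.

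Set beside all genes, MII held *Dcp2* and *Xrn1* at more than 2-fold the GV level, 2 of 8, and 6.28% of the 10661 genes compared were higher by as much. Of the 8 genes, 6 were higher in MII than in GV at all, where 51.3% of all genes were, although *Edc3* was lower with the median change set to 0 and *Dcp1b* higher with equal *Gapdh*. The median change of the 8 was 0.47, and that of all genes compared was 0.04. In TubA-10, *Dcp2* alone was more than 2-fold above GV (background 1.53%), and the median of the 8 was 0.50 against 0.08. In TubA-20, *Dcp2* and *Xrn1* were more than 2-fold above GV, where 15.5% of all genes were, and *Patl2* more than 2-fold below, where 23.9% were. The median of the 8 in TubA-20 was 0.79 against 0.08 for all genes. These 3 comparisons share the GV library.

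The comparisons with MII ask how the drug-treated oocytes differed after an equal time in culture. None of the 8 genes differed from MII by 2-fold in TubA-10, where 1.37% of all genes did, or in TubA-20, where 5.91% did. In TubA-20, 7 of the 8 genes were higher than in MII, as were 51.2% of all genes, and the direction of all 8 was kept under the 4 rescalings tried, which moved the share of all genes between 38.1% and 57.9%. The 7 higher genes, with *Dcp1b* below 1 FPKM among them, lay between 0.16 (*Xrn1*) and 0.63 (*Dcp2*), and the middle 90% of all genes lay between −1.02 and 0.64. Their median with *Patl2* was 0.34, against 0.01 for all genes. In TubA-10, 5 were higher than in MII and 3 lower, with a median of 0.03, and *Dcp2* changed sides under 3 of the rescalings. The share of all genes above their MII level at 10 μM was 51%, and 46.6% to 54.6% over the rescalings. The median change of all genes was 0.009 there. Both comparisons share the MII library.

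Between the doses the same 7 genes were higher at 20 than at 10 μM, with changes from 0.22 (*Edc4*) to 0.62 (*Dcp2*), where 52.2% of all genes were higher. Rescaling moved that share between 41.9% and 57.7%. It left the direction of the 8 genes as it was, but with equal *Gapdh* the changes of *Edc4* and *Edc3* were 0.03 and 0.10. *Patl2* was more than 2-fold lower, as were 11.7% of all genes. For 7 of the 8 genes the highest of the 4 values was that of TubA-20, and 37.5% of the 10898 genes with at least 1 FPKM in a library had theirs there. *Dcp1b*, counted among the 7, stayed below that minimum. GV held the lowest value of 6 of the 8 genes and of 44% of all genes.

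**Figure D4:**
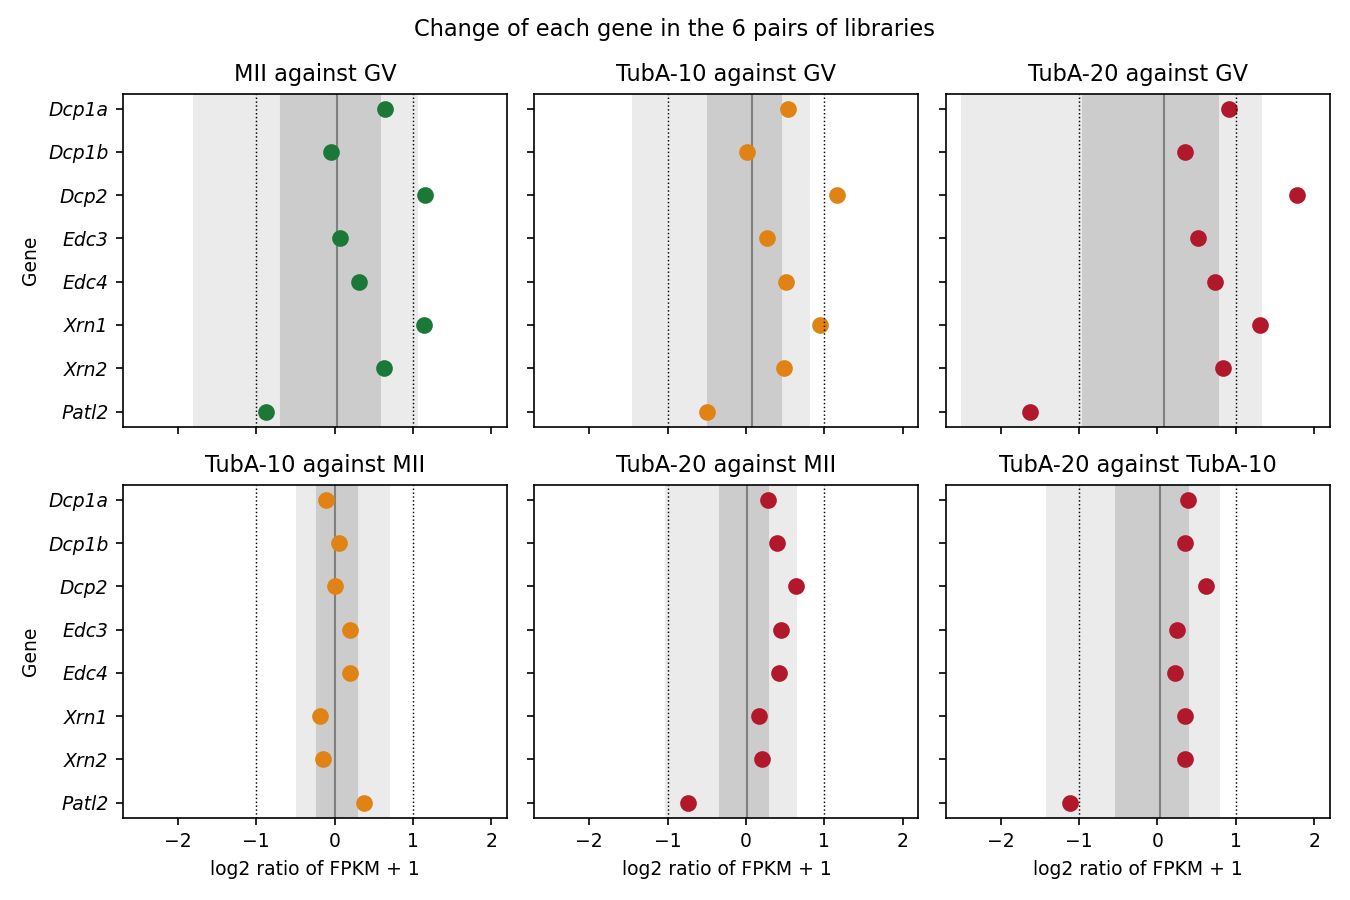
Change of each gene as log2 ratio of FPKM + 1 in the 6 pairs of libraries (points), with the middle 50% and 90% of all genes that reached 1 FPKM in the pair in dark and light grey, their median as a grey line and 2-fold as dotted lines. In TubA-20 against MII, 7 points lie between 0.16 and 0.63, and *Patl2* lies at −0.74.

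The genes whose pattern over the 4 libraries was closest to that of *Dcp2*, *Dcp1a* or *Xrn1* were named by the distance between their 3 log2 changes against GV, among 7896 other genes with at least 5 FPKM in a library. For *Dcp2* these were *Psen2*, *Pms1* and *Snrpn*, at distances of 0.08 to 0.09, and only 29 genes lay within 0.3. For *Dcp1a* they were *Zup1*, *Wsb1* and *Rnf2*, at distances of 0.03 to 0.04, and 884 genes lay within 0.3. The closest to *Xrn1* were *Hspa4l*, *Psip1* and *Yipf4*, with 320 genes within 0.3. A fixed distance holds fewer genes around changes far from those of most genes. In MII, TubA-10 and TubA-20 against GV, *Dcp2* was at percentiles 97.3, 99.5 and 99.6 and *Dcp1a* at 78.5, 81 and 81.1. The numbers of genes within 0.3 are therefore no result apart from these percentiles.

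The partners of decapping in the P-body, the cytoplasmic granule where decapping factors and silent mRNAs gather, were described through a list of 19 genes, 18 of them with at least 1 FPKM. From GV to MII, 12 were higher and 7 lower, and 12 to 16 were higher over the rescalings. Of all genes 51.3% were higher, and 46.6% to 58.1% over the rescalings. Past 2-fold lay *Lsm14a* upward (136 to 286 FPKM, 1.07) and *Lsm3* downward (758 to 196 FPKM, −1.95), where 6.28% and 17.2% of all genes were. With the median change set to 0 *Lsm14a* was at 0.93, short of 2-fold, and with equal sums *Patl1* (1.08) and *Lsm1* (1.08) passed as well. *Lsm14a* encodes an mRNA-binding P-body protein, and *Lsm3* a subunit of both the cytoplasmic and the nuclear Lsm ring. *Pnrc1*, a paralogue of the DCP1 partner *Pnrc2*, differed by −0.92 and *Patl1* by 0.96. Of the cytoplasmic Lsm1-7 ring, *Lsm1*, which sets it apart from the nuclear ring, was at 33.1 FPKM in GV, 64.7 at MII, 57.0 with TubA-10 and 76.4 with TubA-20, values that follow those of *Xrn2* in order. *Lsm7* shared that order, at 204 FPKM in GV, 312 at MII, 248 with TubA-10 and 462 with TubA-20. The other genes of the ring did not. In TubA-20 against MII, *Lsm2* (−0.46), *Lsm4* (−0.36) and *Lsm6* (−0.66) were lower. *Lsm1* (0.24), *Lsm3* (0.24), *Lsm5* (0.32) and *Lsm7* (0.57) were higher. From MII to TubA-20 the median of the 19 genes was 0.19, against 0.01 for all genes. The lowest change was that of *Wtip*, −0.97 on the FPKM + 1 scale, which passed 2-fold with equal sums (−1.05) and equal *Gapdh* (−1.10). *Wtip* was at 1.63 FPKM in GV, 1.39 at MII, 1.03 with TubA-10 and 0.221 with TubA-20, so its plain FPKM lay further apart than that change. *Ddx6*, the helicase that binds PATL and EDC3 proteins, was at 4.45 FPKM in GV, 6.33 at MII, 4.29 with TubA-10 and 4.14 with TubA-20. *Lsm14b*, another oocyte mRNA-storage protein, was at 122, 141, 136 and 228 FPKM in that order.

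Enzymes that handle the cap in other ways are given for comparison. The 6 other cap hydrolases had medians of −0.01 from GV to MII and −0.03 from MII to TubA-20. *Dxo*, which removes faulty caps, went from 23.2 FPKM in GV to 6.89 at MII, 9.27 with TubA-10 and 3.61 with TubA-20. *Nudt2* was at 49.7 FPKM in GV, 24.4 at MII, 56.8 with TubA-10 and 22.8 with TubA-20. *Nudt16* was at 0.635, 1.29, 1.41 and 2.06 FPKM and *Nudt12* at 0.366, 0.755, 0.620 and 0.809 in that order, levels at which FPKM + 1 hides most of a difference. *Dcps*, the scavenger of the short capped remnants of 3′ decay, stayed between 19.8 and 23.7 FPKM. TubA-20 held more of all 6 cap synthesis mRNAs than GV and MII did, with medians of 0.67 and 0.32, except that *Cmtr1* was lower than in MII under 3 of the rescalings. Of all genes 52.2% were higher than in GV and 51.2% higher than in MII, with medians of 0.08 and 0.01. The largest changes from GV to MII in that list were those of *Rnmt*, the cap methyltransferase, from 33.4 to 61.1 FPKM (0.85), and *Cmtr2* (0.81), and the lowest those of *Ramac* (0.30) and *Pcif1* (−0.33).

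Of 7 genes listed under cap-binding proteins, *Eif4e2* went from 84.3 FPKM in GV to 12.04 at MII, 17.6 with TubA-10 and 10.9 with TubA-20, and *Eif4e* from 124 to 55.2, 102 and 52.6. *Eif4e3* and *Ncbp2* were higher in MII than in GV, by 0.95 and 0.59. The median of the 7 was −0.53 from GV to MII and −0.11 from MII to TubA-20, where those of all genes were 0.04 and 0.01. The 3 partners of *Xrn2* stayed within 2-fold in all 6 pairs, with changes from GV to MII of 0.45 for *Cdkn2aip*, −0.34 for *Cdkn2aipnl* and −0.44 for *Nkrf*.

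The opposite route of decay, from the 3′ end, was followed through 20 genes of the exosome and its helpers. Their median change was −0.01 from GV to MII and 0.07 from MII to TubA-20, with 10 genes higher and 10 lower in each. Of all genes 51.3% and 51.2% were higher, with medians of 0.04 and 0.01. Over the rescalings, from 6 to 13 of the 20 were higher in MII than in GV, and from 10 to 13 in TubA-20 than in MII. *Exosc4* and *Exosc5*, which encode subunits of the exosome ring, were the 2 genes of these lists past 2-fold between TubA-20 and MII on the FPKM + 1 scale without rescaling, both lower in TubA-20, as were 5.21% of all genes. In plain FPKM *Wtip* lay that far below MII too. *Exosc4* was at 96.4 FPKM in GV, 29.8 at MII, 36.6 with TubA-10 and 12.3 with TubA-20, and *Exosc5* at 91.4, 15.1, 16.2 and 5.14. *Ttc37* and *Skiv2l*, the scaffold and the helicase of the Ski complex, had the largest positive changes of the list from GV to MII, 0.79 and 0.77. In nonsense-mediated decay, which removes mRNAs with a premature stop codon, 7 of 10 genes were higher in MII than in GV, and 8 under 3 of the rescalings, beside 51.3% of all genes and 46.6% to 58.1% over the rescalings. *Upf1*, its helicase, was at 24.8 FPKM in GV, 51.5 at MII, 40.0 with TubA-10 and 72.1 with TubA-20, and *Smg6*, its endonuclease, differed by 0.99 from GV to MII. *Smg9* differed by −1.25 and *Upf3a* by −0.46.

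**Figure D5:**
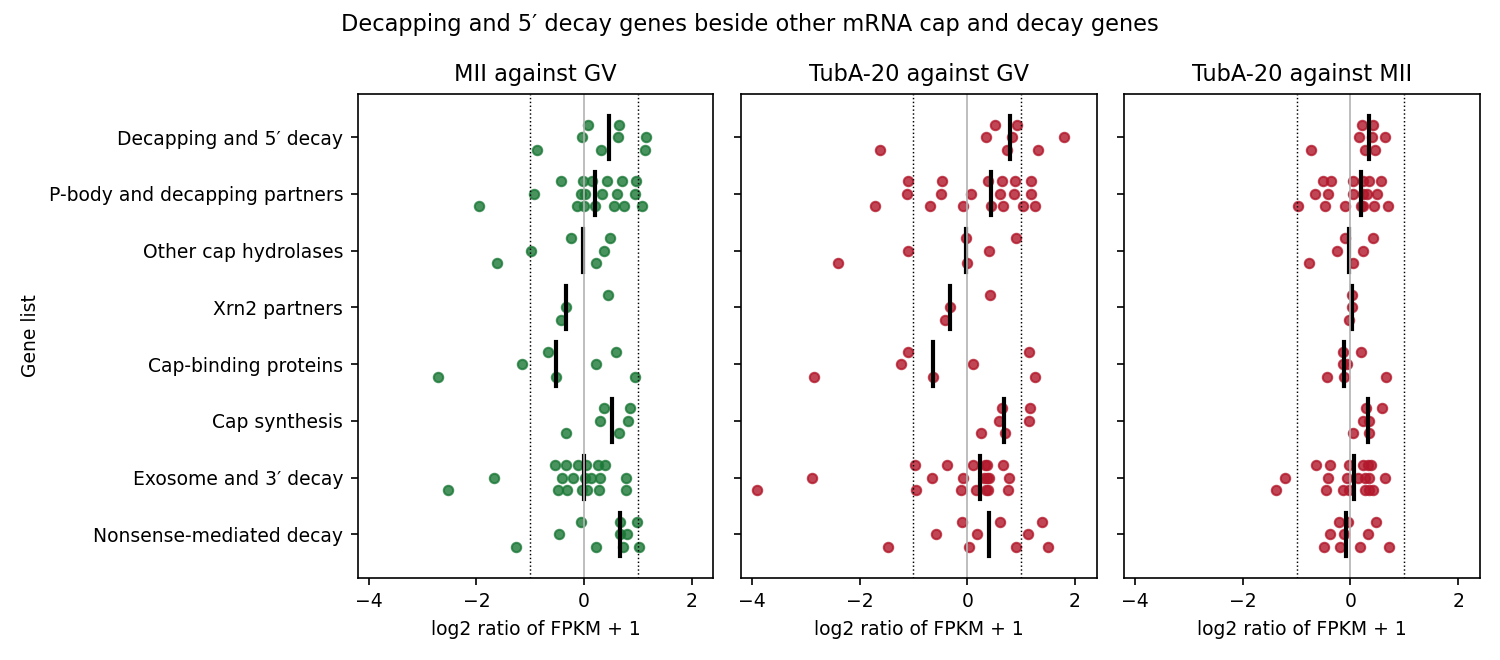
Log2 ratios of FPKM + 1 for the 8 decapping and 5′ decay genes and the genes of 7 other lists (points), with the median of each list as a black bar and 2-fold as dotted lines, in 3 panels for MII over GV, TubA-20 over GV and TubA-20 over MII. The 8 genes have medians of 0.47, 0.79 and 0.34 in that order, and *Exosc4* and *Exosc5* are the points below −1 in the last one.

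For the steps before decapping, the deadenylase gene *Cnot7* was at 120 FPKM in GV, 248 at MII, 206 with TubA-10 and 279 with TubA-20, and *Btg4*, which recruits that complex to maternal mRNAs, at 1808, 2589, 3031 and 2536. *Ybx2*, a protein that packages stored mRNA, was at 182 FPKM in GV and at 86.2, 77.7 and 75.4 in the others.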

How the data were processed

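Polyadenylated RNA of 4 pools of oocytes was sequenced from both ends. The authors deposited FPKM values, which they made with cufflinks and a strand-specific library type against mm10, and the submitters' processing notes also name STAR 2.5.0 and Cuffdiff 2.2.1. The labels and the study's methods name different RNA extraction kits. The 4 columns were mapped by their descriptions. Symbols were joined to 21959 entries by identifier without version, 165 had none, and entries with 1 symbol were added. Read counts and the study's read totals were not used. Relative depth was estimated from the lowest FPKM values.

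Log2 ratios of FPKM + 1 were computed for 6 pairs of libraries, with no test, and set beside all genes that reached 1 FPKM in the pair. The members, the gene lists and the 2-fold threshold were chosen with earlier results of these data known. All 8 members were named, and of the other lists the 2 largest rises and falls from GV to MII, genes past 2-fold between TubA-20 and MII, and a few fixed points of reference. *Nrn1l*, *Clk3*, *C78334*, *Gm16794*, *Lsm1*, *Lsm2*, *Lsm4*, *Lsm5*, *Lsm6*, *Lsm7*, *Cmtr1*, *Wtip*, *Gdf9*, *Zp3*, *Cyp19a1* and *Foxl2* and the overlap of exons were added after values were seen. The genes nearest in pattern to *Patl2* are not reported here. Positions and 3′ ends come from GENCODE M21 on GRCm38, the assembly that mm10 names. Pseudocounts, 4 rescalings of the libraries, thresholds and minimum values were varied. Scripts were tested on simulated data. Python 3.11.15, numpy 2.4.6, pandas 2.3.3 and matplotlib 3.10.9 were used.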

Additional observations from a re-analysis of the deposited data

How the results depend on the processing

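With 1 library for each condition, the values cannot be set against replicates, and the fragments behind each value were not counted here. A threshold of 1.5-fold put 5 of the 8 genes past it in MII against GV, 2 in TubA-10 and 6 in TubA-20, each compared with GV, 2 in TubA-20 against MII and 2 between the doses, in place of 2, 1, 3, 0 and 1. At 3-fold the numbers were 0 in MII and 0 in TubA-10 against GV and 0 between the doses. The shares of all genes past 1.5-fold and 3-fold were not counted. Against GV, the middle 50% of all genes lay on the log2 scale between −0.68 and 0.57 in MII. They lay between −0.48 and 0.45 in TubA-10 and between −0.95 and 0.78 in TubA-20. The range was −0.33 to 0.28 in TubA-20 against MII and −0.52 to 0.39 between the doses. At 2-fold, the number of the 8 genes in TubA-10 against GV was 2 with pseudocounts of 0.1 and 0.01, with equal sums and with equal *Gapdh*, since *Xrn1* was added. Pseudocounts of 0.1 and 0.01 put 1 gene, *Dcp1b*, past 2-fold in TubA-20 against MII, and equal upper quartiles left 0 between the doses, since *Patl2* fell short. The other 39 counts stayed within 1.5 times. All 36 medians of the 8 genes moved by less than 0.39, the robust SD of all genes with at least 5 FPKM between TubA-10 and MII. Of the log2 changes of single genes 282 did so too, and the 6 that did not are those of *Dcp1b* in TubA-20 with smaller pseudocounts. No gene past 2-fold changed its direction, but these settings could not turn one. A pseudocount keeps the sign of a ratio, and the rescaling factors against GV lay between −0.23 and 0.27 on the log2 scale. Without a minimum of 1 FPKM the share of all genes past 2-fold in either direction, 5.91% in TubA-20 against MII, was 2.77%.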

Other observations

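Over all genes, those with a CPE in the last 150 bases of the 3′ UTR had a median log2 change of 0.40 from GV to MII (2474 genes), and those without one of −0.04 (7010 genes). From MII to TubA-20 the medians were 0.13 with a CPE and −0.02 without, and from GV to TubA-20 they were 0.56 and −0.03. In TubA-10 against MII the order was reversed, with −0.11 for genes with a CPE and 0.04 for those without. By the transcript used for each gene, *Dcp1a* and *Xrn1* belong to the first class. *Dcp2*, with larger changes than either in TubA-20, belongs to the second, as do *Edc3*, *Edc4*, *Xrn2* and *Patl2*. Genes are not replicates, and these medians describe the 4 libraries alone.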
